A study of Mus musculus with 26 samples.

Results

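Cluster 5 was the largest stromal cluster of the mouse RPE/choroid, the retinal pigment epithelium (RPE) together with the vascular and connective tissue layer beneath it. Its members were the cells to which the deposited metadata gave number 5 in a clustering at resolution 0.8 with 13 clusters. It held 1687 of 7565 cells. In the B6129PF1/J library these were 848 of 3637 cells, or 23.3% (95% exact binomial interval 21.9 to 24.7), and in the C57BL/6J library 839 of 3928 cells, or 21.4% (20.1 to 22.7). The other stromal clusters 6, 7 and 8 held 1144, 343 and 320 cells.

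The study profiled RPE/choroid single cells from 3-month-old mice of the strains B6129PF1/J and C57BL/6J on the 10x Chromium platform, which counts unique molecular identifiers (UMIs) at the 3′ end of transcripts. Each strain gave 1 library, made from an eye of a male and an eye of a female pooled during digestion, and the cells were sorted for a nuclear stain and against a dead-cell stain. Bulk RNAseq was done on RPE/choroid tissue of 6-month-old C57BL/6J mice, labelled wild type or IhhiΔEC/ΔiEC (Ihh deleted in endothelial cells) and given tamoxifen 12 weeks earlier (3 mice per group, with a tamoxifen-inducible Cre under the endothelial Cdh5 promoter in the controls too) and on cultured choroidal GLI1+ cells of Gli1GFP/+ mice, labelled SWR/J, a line the study outcrossed to BALB/c (3 replicates per group), given DMSO or 100 nM SAG, a Hedgehog agonist, for 24 h. Strain, library and mice cannot be told apart, so no test was made between strains, and a cluster against another is no test because the clusters were made from these genes.

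Stromal cells of the choroid are fibroblasts, pericytes and related mesenchymal cells that lie around the vessels and lay down the collagen, elastic and proteoglycan matrix of the tissue. PDGFRα, the receptor encoded by Pdgfra, is widely used to mark fibroblasts, whereas pericytes express Rgs5. PDGFRβ, which pericytes also carry, was used in the study as a stromal marker. Stromal cells also send secreted signals, among them R-spondins and Wnt proteins, chemokines and prostaglandins, to the neighboring endothelium.

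The levels below are the UMIs of a gene summed over the cells of a cluster, per 10,000 UMIs of all genes in those cells, and the intervals cover counting error only. The B6129PF1/J value is given first throughout. Cells of cluster 5 had a median of 3516.5 and 3037 UMIs and 1592.5 and 1480 genes, with 3.21% and 3.08% of UMIs from mitochondrial genes. The libraries shared 22 cell barcodes, 5 of them in cluster 5 of each library and 0 in cluster 5 of both. The deposited cells were used without a doublet caller. UMIs of both Xist and Ddx3y, which mark female and male cells, were found in 8 and 10 cells of cluster 5.

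All label markers were higher in cluster 5 than in cluster 6, with the smallest gap for Ptger2, while clusters 7 and 8 carried them too. Pdgfra stood at 2.00 and 1.88 in cluster 5, at 0.137 and 0.0894 in cluster 6, at 1.61 and 1.43 in cluster 7 and at 3.37 and 2.07 in cluster 8. The level in cluster 8 was above that in cluster 5 in both libraries, by a ratio of cluster 5 to cluster 8 of 0.593 (0.507 to 0.696) and 0.908 (0.731 to 1.14), the second of which spans 1. Cldn11, a tight junction claudin of myelin and the meninges, was at 1.23 and 1.38 in cluster 5 and 0.0392 and 0.0473 in cluster 6. Its ratio of cluster 5 to cluster 8 was 0.916 (0.723 to 1.17) and 1.20 (0.901 to 1.62).

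Ptger2, a receptor for prostaglandin E2, was at 1.19 and 1.15 in cluster 5, above each of the other stromal clusters in both libraries, and the nearest was cluster 7 at 0.919 and 0.783. Cpxm1, a secreted carboxypeptidase-like protein, was at 3.08 and 3.48 in cluster 5, 0.392 and 0.321 in cluster 6, 1.40 and 1.75 in cluster 7 and 3.51 and 2.87 in cluster 8. Its ratio of cluster 5 to cluster 7 was 2.20 (1.82 to 2.68) and 1.99 (1.62 to 2.46), with the second just under 2-fold, and that of Ptger2 to cluster 8 was 3.75 (2.4 to 6.21) and 1.77 (1.22 to 2.65). The 4 markers were chosen for the label with earlier results of these data known, so the counts below are a description and no test. All 4 label markers were at least 2-fold higher than in cluster 6 in both libraries, against 5.91% of the genes tested in that comparison. In both libraries 0 of 4 were 2-fold higher than in cluster 7 or 8, against 4.04% and 1.31%. The name Pdgfra-positive therefore also covers clusters 7 and 8.

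**Figure D1:**
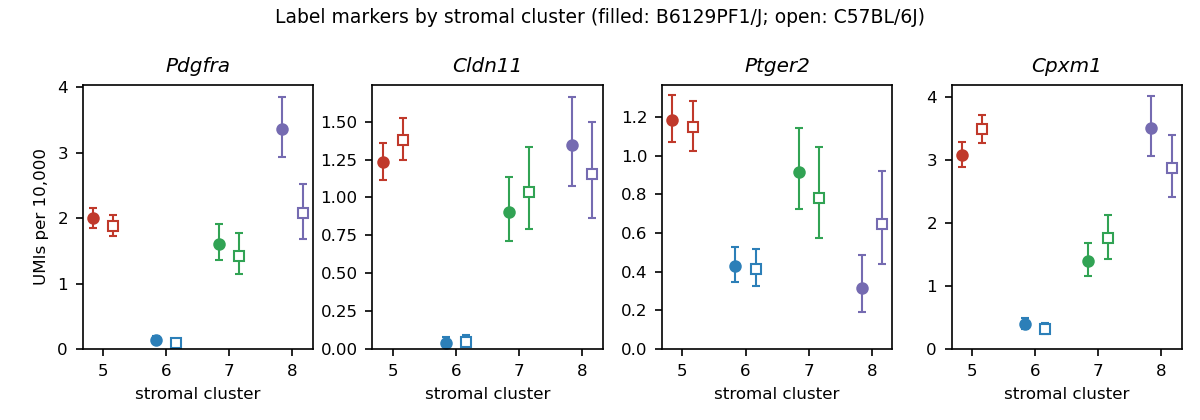
Levels of the 4 label markers (y axis, UMIs per 10,000, from 0) in stromal clusters 5 to 8 (x axis), with filled circles for B6129PF1/J, open squares for C57BL/6J and bars for exact Poisson 95% intervals. Cluster 6 lies lowest for Pdgfra, Cldn11 and Cpxm1, and cluster 8 reaches 3.37 for Pdgfra, above the 2.00 of cluster 5.

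To compare cells at equal depth, each cell was thinned at random to 1700 UMIs. At least 1 UMI of a label marker was then found in 67.2% and 69.1% of cluster 5 cells. The shares were 14.2% and 13.6% in cluster 6, 48.6% and 58.2% in cluster 7 and 60% and 58.8% in cluster 8. In the hematopoietic cluster 11, which should lack these genes and whose cells had medians of 5047.5 and 3977 UMIs before thinning, the shares were 2.83% and 5.51%. A UMI of Pdgfra itself was found in 26.9% and 26.1% of thinned cluster 5 cells and 0.943% and 2.36% of those of cluster 11, while without thinning the share in cluster 5 was 46.1% and 42%.

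The summed markers of other cell types were far lower in cluster 5 than in the cluster where each sum was highest, although Emcn was not near 0. The 7 hematopoietic markers summed to 0.390 and 0.357, against 454 and 380 in cluster 11, and the 6 melanocyte markers to 0.479 and 0.589, against 586 and 580 in cluster 10. The 7 RPE markers summed to 10.2 and 8.08, against 1478 and 1383 in the RPE cluster 1, with Ttr, the retinol-transport protein transthyretin, giving 7.56 and 5.87. Of the endothelial markers, Emcn, an endothelial sialomucin, stood at 10.9 and 9.44, while Cdh5, the endothelial cadherin, was at 0.0724 and 0.0794. The Schwann markers summed to 1.68 and 2.22, of which S100b, a calcium-binding protein, made up 1.37 and 1.73. The endothelial markers summed to 12.0 and 10.9, against 175 and 173 in the endothelial cluster 2. The part of free RNA or of mixed droplets in these levels was not tested.

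A small group of genes separated cluster 5 from all 3 other stromal clusters. Of 6015 genes with at least 50 UMIs in cluster 5 of each library, 18 (0.299%) were at least 2-fold higher there than in each of clusters 6, 7 and 8 in both libraries, and 12 (0.200%) than in every other cluster of at least 50 cells. The rule is one of size and not a test, and taken singly the B6129PF1/J library gave 29 genes and the C57BL/6J library 37. The 18 were Pappa2, Pvrl4, Ptx3, Rnf128, Rbp4, Rspo2, Alpl, Nr1h4, Col23a1, Ngb, 9330159F19Rik, Ndp, Slc5a3, Bzw2, Nt5e, Cited2, Rgs7bp and Irx5. Of these, Rnf128, Alpl, 9330159F19Rik, Cited2, Rgs7bp and Irx5 did not pass the rule over every cluster. In both libraries 9330159F19Rik, Rgs7bp and Irx5 were not above the highest nonstromal cluster. Just inside the threshold lay Rgs7bp and Irx5, at a smaller ratio of 2.02 for both, and just outside lay Nqo1 at 1.97 and Camp at 1.95.

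Pappa2, a protease that cleaves IGF-binding proteins, was at 0.970 and 0.762 in cluster 5, with 308 and 211 UMIs, and next highest in cluster 7 at 0.0942 and 0.0851. The ratio was 10.3 (5.16 to 24.1) and 8.95 (3.78 to 27.9). Pappa2 lies on chromosome 1 at 158711727 to 158980490 of mm10, on the minus strand. It was found in 13.3% and 10.2% of thinned cluster 5 cells and in 0 thinned cells of cluster 11, and without thinning in 0.943% and 0% of the latter.

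Pvrl4, now named Nectin4, encodes a cell adhesion protein of the nectin family and lies on chromosome 1 at 171370099 to 171388598 of mm10. It was at 0.431 and 0.491 in cluster 5 and at 0.0942 and 0.0681 in cluster 7, a ratio of 4.58 (2.26 to 10.8) and 7.21 (2.75 to 26.9). Ptx3, a secreted pattern-recognition pentraxin, was at 0.202 and 0.188, against 1 UMI in cluster 7 and 2 UMIs in cluster 8 as the next highest, so its ratio of 17.1 (2.96 to 686) and 4.48 (1.18 to 38) is loosely bounded. Rnf128, a ubiquitin ligase, was at 0.208 and 0.181, a ratio of 4.38 (1.43 to 21.8) and 8.62 (1.48 to 347).

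Rbp4, the plasma retinol carrier, differed most between the libraries of this group. It was at 1.43 and 0.303 in cluster 5 and at 0.459 and 0.0209 in cluster 8, with 29 UMIs and 1 UMI in the latter. The ratio to cluster 8 was 3.11 (2.14 to 4.70) and 14.5 (2.53 to 579). Rspo2, an R-spondin that amplifies Wnt signaling, was at 0.381 and 0.199 in cluster 5, 3.71 (2.32 to 6.20) and 2.70 (1.48 to 5.25) times the level in cluster 6. Ndp, the Norrin ligand of FZD4, was at 0.211 and 0.199, and its ratio in C57BL/6J was 2.37 (0.875 to 9.01), an interval that spans 1, as does that of 9330159F19Rik, a transcript of unknown role, at 2.46 (0.996 to 7.86).

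The promoters of genes that lead cluster 5 are shown because these 3 genes are among the 5 with the largest ratios. RefSeq gives a window for 15 of the 18 genes, 17 windows in all. The 250 bases before the start of each are printed 5′ to 3′ on the strand of the gene, from GRCm38.p6, with capitals for a TATA box (TATAAA), a GC box (CCGCCC), a forkhead motif (TGTTTAC) or a GLI motif (GACCACCCA) on either strand. Pappa2 chr1:158958176-158958425 (minus strand), Pvrl4 chr1:171369923-171370172 (plus strand) and the first Rbp4 window chr19:38124812-38125061 (minus strand) are given. The Pappa2 and Rbp4 windows follow the start that RefSeq gives and lie inside the longer GENCODE span of each gene.
Pappa2: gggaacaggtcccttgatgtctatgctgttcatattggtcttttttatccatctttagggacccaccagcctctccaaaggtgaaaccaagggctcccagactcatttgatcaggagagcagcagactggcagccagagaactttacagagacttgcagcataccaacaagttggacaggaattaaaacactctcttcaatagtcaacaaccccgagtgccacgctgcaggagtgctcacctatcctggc
Pvrl4: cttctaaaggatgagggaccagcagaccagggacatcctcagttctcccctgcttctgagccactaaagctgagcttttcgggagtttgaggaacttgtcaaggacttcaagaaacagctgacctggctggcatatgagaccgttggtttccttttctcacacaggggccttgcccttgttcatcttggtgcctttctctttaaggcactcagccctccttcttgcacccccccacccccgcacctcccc
Rbp4: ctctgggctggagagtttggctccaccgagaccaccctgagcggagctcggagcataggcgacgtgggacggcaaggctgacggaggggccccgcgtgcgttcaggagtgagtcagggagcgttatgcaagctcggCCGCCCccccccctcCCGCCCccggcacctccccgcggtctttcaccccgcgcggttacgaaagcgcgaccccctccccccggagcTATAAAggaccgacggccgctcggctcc
A TATA box was found in 4 of the 17 windows and in 12.4% of all 32851, a GC box in 8 and in 32.7%, a forkhead motif in 2 and in 3.17%, and a GLI motif in 0 and in 0.225%. In the Rbp4 window printed, the TATA box starts 28 bases before the start and the GC boxes 114 and 99 bases before it. The GC content was 49.2% for Pappa2, 54.4% for Pvrl4 and 70.8% for Rbp4, against a median of 52.4% over all windows. A match is a description of letters and not a site of binding.

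Among enzymes and transporters, Alpl, tissue-nonspecific alkaline phosphatase, was at 4.25 and 4.22, with 48.9% and 46.2% of thinned cluster 5 cells holding a UMI and 1.89% and 2.36% of those of cluster 11. Cluster 4 was the next highest for Alpl over all clusters, at 2.32 and 3.05, so Alpl was not among the 12 genes above every cluster. Nt5e, the 5′-ectonucleotidase CD73, was at 0.834 and 0.603, and Slc5a3, a myo-inositol transporter, at 1.40 and 1.10. Nr1h4, the bile acid receptor FXR, was at 0.268 and 0.256. Cited2, a transcriptional co-regulator, was at 6.64 and 7.69, and its next level was 3.29 in cluster 8 of B6129PF1/J and 3.63 in cluster 6 of C57BL/6J among the stromal clusters.

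**Figure D2:**
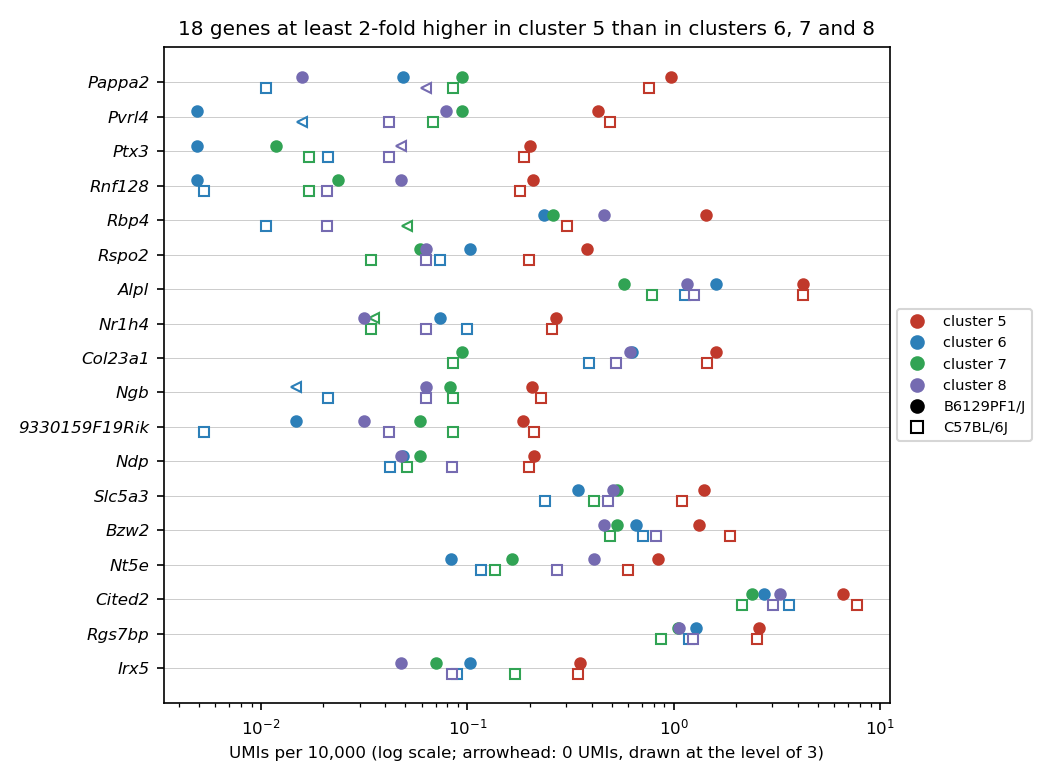
Levels (x axis, UMIs per 10,000, log scale) of the 18 genes at least 2-fold higher in cluster 5 than in clusters 6, 7 and 8 (rows), colored by cluster, with filled circles for B6129PF1/J, open squares for C57BL/6J and arrowheads for 0 UMIs drawn at the level of 3. Cluster 5 is rightmost in every row within each library because the genes were chosen so, and Rbp4 shows the wide gap between its libraries, 1.43 against 0.303.

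After thinning, at least 1 of them was found in 94.8% and 94.3% of cluster 5 cells and at least 3 in 55.1% and 48.6%. At least 3 were found in 7.76% and 6.30% of cluster 6 cells, 8.65% and 3.80% of cluster 7, 8.75% and 5.00% of cluster 8 and 0.943% and 3.15% of cluster 11. These shares rest on genes chosen in the same cells and are a description only, and at this depth most of the 18 genes gave a UMI in few cells, so whether they shared cells cannot be read from them.

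Few genes were lower in cluster 5 than in all the other stromal clusters. Of 1067 genes with a level of at least 1 in clusters 6, 7 and 8 of both libraries, 0 (0%) were 2-fold lower in cluster 5 than in each of them. The count depends on that minimum: Itih5, an inter-alpha-trypsin inhibitor heavy chain, was under it and stood at 0.280 and 0.235 in cluster 5, 0.671 and 0.563 in cluster 6, 1.52 and 0.834 in cluster 7 and 3.20 and 1.95 in cluster 8. With no minimum, 8 genes were lower by 2-fold. Among the 1067, the lowest was Meg3, an imprinted long noncoding RNA, at 2.59 and 3.12 in cluster 5 and 4.40 and 4.36 in cluster 8, a ratio to the lowest of the 3 clusters of 0.588 and 0.716. After it came Sept11, at 0.787 and 0.769 of the lowest, Tmem100, at 0.852 and 0.670, and Serpinh1, a collagen chaperone, at 0.749 and 0.853.

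Cluster 8 was the nearest neighbor of cluster 5. Over the 6015 genes the median size of the log2 ratio was 0.249 and 0.259 against cluster 8, 0.278 and 0.303 against cluster 7 and 0.300 and 0.294 against cluster 6. Among genes of at least 50 UMIs in either cluster, 79 of 6016 (1.31%) were higher and 26 (0.432%) lower than in cluster 8 by 2-fold in both libraries. Cluster 5 held more cells than clusters 7 and 8, so the minimum admits genes high in cluster 5 at lower levels, and the higher and lower counts are not on equal footing. The numbers were 244 (4.04%) and 120 (1.99%) of 6045 against cluster 7, and 370 (5.91%) and 380 (6.07%) of 6259 against cluster 6.

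Pericyte markers were low in cluster 5 beside cluster 6. Rgs5, a pericyte regulator of G protein signaling, was at 0.894 and 0.809 in cluster 5 and at 95.9 and 93 in cluster 6. Higd1b was at 2 and 5 UMIs in cluster 5 and at 2.77 and 4.16 in cluster 6. Gja4, a vascular connexin that was not in the pericyte list, was at 0.0504 and 0.0758 against 3.61 and 3.91. Of 9 pericyte markers tested, 8 were lower and 0 higher (6.07% and 5.91% of all genes). The median log2 ratio was -2.70 against 0.03 for all genes. Genes higher in cluster 5 included Klf5, a transcription factor, at 0.680 and 0.765 against 0.0147 and 0.0158, a ratio of 46.3 (15.6 to 226) and 48.5 (16.4 to 237) on 3 UMIs in cluster 6 of each library. Against cluster 7, 4 of 7 pericyte markers were higher and 1 lower (4.04% and 1.99% of all genes). Kcnj8 had a ratio of 3.00 (2.05 to 4.55) and 5.82 (3.21 to 11.8) there. Against cluster 8, 1 of 7 was higher and 1 lower (1.31% and 0.432% of all genes).

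Over all genes, 5.91% were higher and 6.07% lower than in cluster 6. Of 18 elastic fiber genes tested, 9 were higher and 1 lower than in cluster 6, with a median log2 ratio of 1.44. Mfap4, a microfibril-associated protein, was at 3.56 and 2.35 against 0.113 and 0.0894, and Fbln5, fibulin-5, at 1.78 and 1.76 against 0.274 and 0.179. Of 9 small proteoglycans and lecticans, 3 were higher and 1 lower, with Lum, lumican, at 26.8 and 31.9 against 3.43 and 3.83. Wnt pathway genes were higher in 8 of 14 and lower in 2, with Rspo3 at 0.812 and 0.542 against 0.0392 and 0.0105 and Wnt5a, a noncanonical Wnt ligand, at 1.32 and 1.20 against 0.113 and 0.110. Against cluster 7, 0 of 10 proteoglycans and lecticans were higher and 5 lower (4.04% and 1.99% of all genes). There 1 of 17 elastic fiber genes was higher and 2 lower, and 2 of 14 Wnt pathway genes were higher and 3 lower. Against cluster 8, 2 of 9 proteoglycans and lecticans were higher and 1 lower (1.31% and 0.432% of all genes). Of elastic fiber genes 1 of 17 was higher there, and of Wnt pathway genes 2 of 13, with 0 lower in either group.

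Prostaglandin genes were higher than in cluster 6 in 6 of 13 and lower in 0 (5.91% and 6.07% of all genes). The median log2 ratio was 1.15. Ptgs2, the inducible cyclooxygenase, was at 1.88 and 1.09 against 0.147 and 0.0368, and Ptges, a prostaglandin E synthase, at 1.17 and 1.15 against 0.132 and 0.121. Ptgs2 was also higher than in cluster 7, at 0.565 and 0.289, with a ratio of 3.32 (2.47 to 4.55) and 3.77 (2.31 to 6.56). Hpgd, which degrades prostaglandins, was at 1.59 and 1.34, more than 2-fold over clusters 6 and 8 in both libraries.

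Against cluster 7, cluster 5 was lower in fibrillar collagens. Of 6 fibrillar collagens, 4 were lower and 0 higher (1.99% and 4.04% of all genes). The median log2 ratio was -1.20 against -0.02 for all genes. Col1a2 was at 6.08 and 5.78 in cluster 5 and at 15.1 and 12.0 in cluster 7, and Col3a1 at 4.60 and 3.79 against 11.1 and 8.0. Fmod, fibromodulin, was at 0.0378 and 0.00722 against 10.1 and 1.87, and Myoc, myocilin, at 4 and 5 UMIs against 6.82 and 9.36. Dpt, dermatopontin, had 0 UMIs in cluster 5 of either library and 75 and 97 in cluster 7.

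Of 38 forkhead and patterning factors tested against cluster 7, 11 were higher and 1 lower (4.04% and 1.99% of all genes). The minimum of 50 UMIs is reached at a lower level in cluster 5 than in the smaller cluster 7, so factors high in cluster 7 entered less easily, and the count does not describe the whole list. Foxd1, which did not enter, was at 0.0441 and 0.0361 against 0.365 and 0.528, and Meox2 at 0.0535 and 0.0181 against 0.754 and 0.425. Tcf21, a mesenchymal transcription factor, was at 1.27 and 0.964 against 0.0589 and 0.0340, a ratio of 21.6 (9.18 to 66.9) and 28.3 (7.76 to 235). Nr2f1, an orphan nuclear receptor, was at 2.09 and 2.67 against 0.389 and 0.425, and Tbx18, a T-box factor, at 1.02 and 0.979 against 0.330 and 0.170. Coch, the secreted protein cochlin, was at 0.803 and 1.57 against 2 UMIs and 1 UMI in cluster 7, and it was also higher in cluster 5 than in cluster 8, by 8.46 (3.83 to 23.3) and 6.82 (3.77 to 13.8). In cluster 6 Coch was higher still, at 2.17 and 2.97.

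Immediate-early genes rise within minutes of a stimulus and also during tissue digestion. They were higher than in cluster 7 in 10 of 22 and lower in 0 (4.04% and 1.99% of all genes). The median log2 ratio was 1.27. Fos was at 65.7 and 70.4 against 31.9 and 20.4. Against cluster 6, 1 of 23 was higher and 1 lower (5.91% and 6.07% of all genes). Against cluster 8, 0 of 22 were higher or lower (1.31% and 0.432% of all genes). Both are near the shares over all genes. The part of tissue handling in the difference from cluster 7 was not tested. Chemokines and cytokines were higher than in cluster 7 in 5 of 12 and lower in 0, with Cxcl12 at 22.4 and 17.9 against 5.86 and 4.94.

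**Figure D3:**
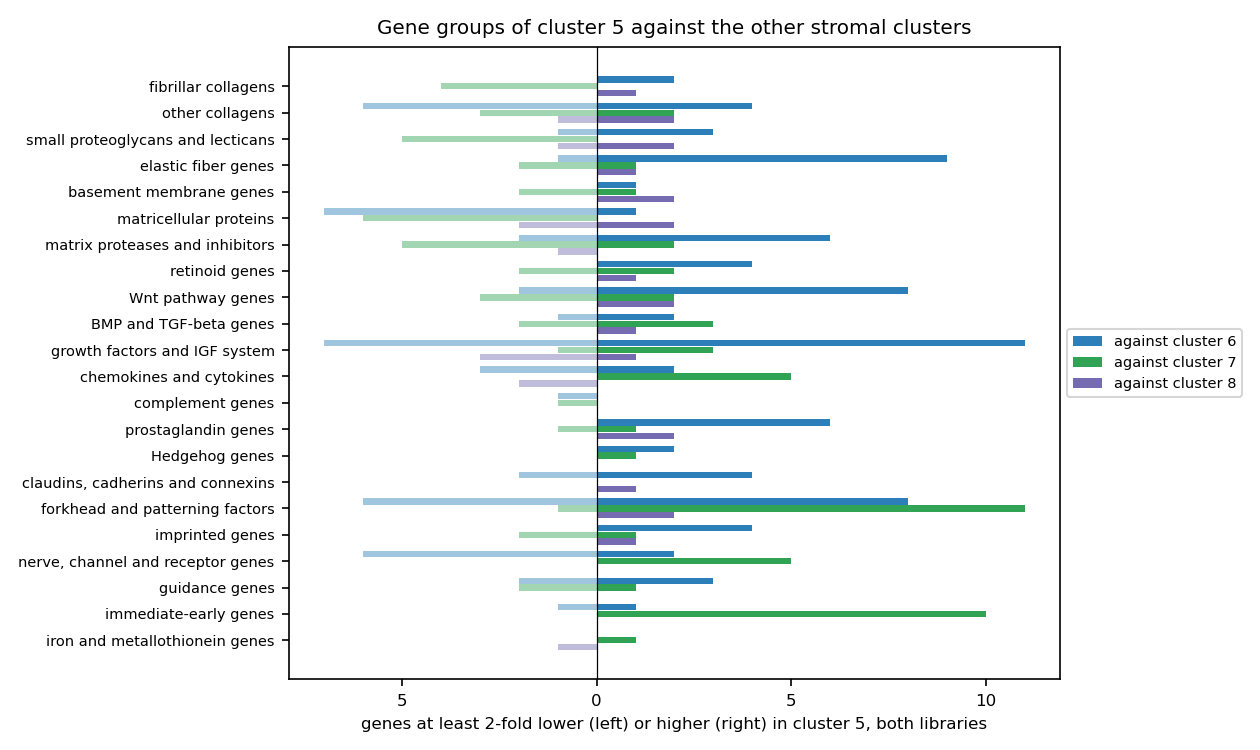
Number of genes in each group (rows) at least 2-fold higher (right, solid) or lower (left, pale) in cluster 5 than in cluster 6, 7 or 8, in both libraries. The longest bars are the 11 growth factor and IGF genes higher than in cluster 6 and the 11 patterning factors higher than in cluster 7, and bars against cluster 8 reach 3 at most.

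Over all genes, 5.91% were higher and 6.07% lower than in cluster 6, and 4.04% and 1.99% than in cluster 7. Of 15 matricellular proteins tested, 1 was higher and 7 lower than in cluster 6, with a median of -0.84. Against cluster 7, 0 were higher and 6 lower, with a median of -1.04. Growth factor and IGF genes were higher than in cluster 6 in 11 of 30 and lower in 7. Igfbp6, an IGF-II binding protein, stood apart from cluster 7, at 0.538 and 0.365 against 16.7 and 20.7. Of the nerve, channel and receptor genes, 5 of 11 were higher than in cluster 7 and 6 of 12 lower than in cluster 6. Retinoid genes were higher than in cluster 6 in 4 of 12 and lower in 0. Of 8 complement genes, 0 were higher in any of the 3 comparisons. Over all genes 5.91%, 4.04% and 1.31% were higher, so 0 of 8 says little about these genes. Of the complement genes, 1 was lower than in cluster 6 and 1 than in cluster 7.

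Against cluster 8 the differences were few. The 6 highest ratios were those of Pappa2, Coch, the Y-linked Eif2s3y, Pvrl4, 9330159F19Rik and Nnat, in that order. Nnat, an imprinted proteolipid gene, was at 1.28 and 0.885 against 0.285 and 0.105. Lower in cluster 5 were Apod, apolipoprotein D, at 3.28 and 3.91 against 26.7 and 29.8, Col15a1, a basement membrane zone collagen, at 0.183 and 0.264 against 2.50 and 1.82, and Angptl1, an angiopoietin-like protein, at 0.220 and 0.119 against 2.28 and 1.07. Htra3, a secreted serine protease, and Il33, an alarmin cytokine, were also lower, at 0.227 and 0.274 against 2.25 and 2.37 for Htra3 and 0.658 and 0.372 against 2.82 and 2.22 for Il33.

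Cluster 8 differed from cluster 5 in its sex makeup. A UMI of Xist was found in 48.5% (45.1 to 51.9) and 43.6% (40.2 to 47.1) of cluster 5 cells and in 78.8% (71.6 to 84.8) of cluster 8 cells in each library. A UMI of the Y-linked Ddx3y was found in 12.6% and 13.5% of cluster 5 cells and 7.50% and 4.38% of cluster 8 cells, and Eif2s3y, also Y-linked, was among the genes higher in cluster 5. The pattern of Xist held after thinning, at 46.0% and 41.2% in cluster 5 and 74.4% and 78.1% in cluster 8. Each library pools 1 male and 1 female eye, so sex and mouse cannot be told apart. The genes higher or lower than in cluster 8 were looked at again in cells with Xist and no Ddx3y. Of the 79 higher and 26 lower, 78 and 26 kept their direction in both libraries, and 55 and 20 stayed past 2-fold. These cells are part of those in which the genes were picked, so this is a description and no separate test.

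**Figure D4:**
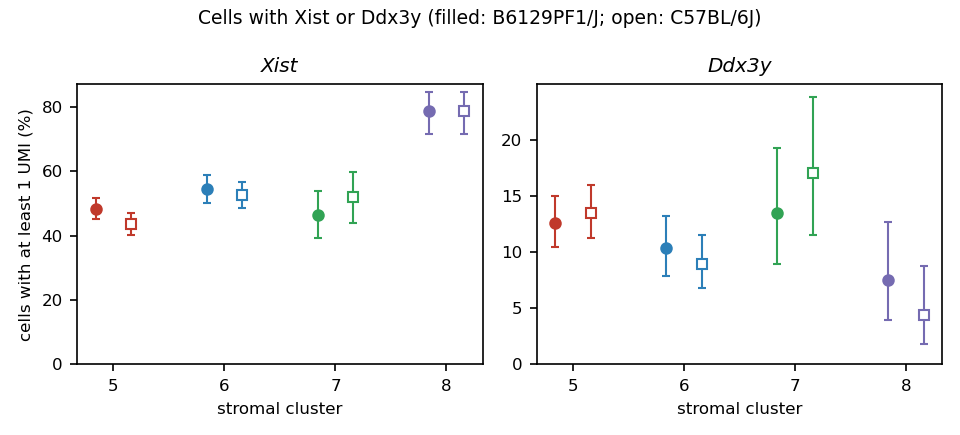
Share of cells with at least 1 UMI of Xist (left) or Ddx3y (right) in stromal clusters 5 to 8, in percent, with filled circles for B6129PF1/J, open squares for C57BL/6J and bars for exact binomial 95% intervals. Cluster 8 stands at 78.8% for Xist in both libraries, above the 48.5% and 43.6% of cluster 5.

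Within cluster 5 the male and female cells were compared by a 2-fold rule. Of 1551 genes tested between cells with Xist and cells with Ddx3y, 1 (0.0645%) was 2-fold higher in each set in both libraries. They were Xist and Ddx3y themselves, which define the sets, so their calls were fixed in advance. The Ddx3y set held 99 and 103 cells, so smaller differences can be missed. Past 1.5-fold in both libraries were Ddx3x, Nupr1, Tcf21 and Mfap4 in Xist cells, and Dhrs3, Id4 and Emb in Ddx3y cells, named after their values were seen.

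Between strains, 24 of 1683 genes with a level of at least 1 in the higher library differed by 2-fold in cluster 5, 14 (0.832%) higher in B6129PF1/J and 10 (0.594%) higher in C57BL/6J. Ctgf, a matricellular growth factor binding protein, had a level of 6.99 against 1.23, a ratio of 5.66 (5.05 to 6.36). It had the same direction in 9 of 10 other clusters, 7 of them past 2-fold. Rbp4 was 4.70-fold (3.72 to 6.01) higher in B6129PF1/J, and it had the same direction in 6 of 10 other clusters compared. Of the 14 genes, 6 were predicted Gm-named loci, led by Gm10709 at 2.05 and 0.0506 and Gm10116 at 19.3 and 0.531. Reads of such loci can belong to a near-identical gene, so their counts are uncertain, and all 6 had the same direction in 10 of 10 other clusters.

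Interferon-responsive genes were among those higher in C57BL/6J. Ifit1 was at 1.09 and 3.03, Isg15, a ubiquitin-like modifier, at 2.44 and 5.43 and Ifi27l2a at 2.83 and 6.01. The direction was the same in 9 of 10 other clusters for Ifit1 and in 10 of 10 for Isg15 and Ifi27l2a. Pttg1, securin, was at 0.664 and 1.64 and Ftl1, ferritin light chain, at 21.5 and 46.1. Each had the same direction in 10 of 10 other clusters. Gm10116, named Ftl1-ps1 in GENCODE, went the other way, at 19.3 and 0.531. Whether reads of Ftl1 and Gm10116 were exchanged was not tested.

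The difference in Gsto1, a glutathione transferase, rested on a single cell. It was at 0.151 in B6129PF1/J and 7.30 in C57BL/6J, and 1945 of its 2022 UMIs in C57BL/6J were in the cell with the most UMIs, which held 15926. Without that cell the level was 0.280. The same cell held 376 of 879 UMIs of Ly6a, a surface protein of progenitor and interferon-exposed cells, whose level fell from 3.17 to 1.83 without it. It also held 247 of 271 UMIs of Prss27, 157 of 158 of Asprv1, and all 75 of Krt7, a keratin of simple epithelia, and all 107 of Plet1. It held 0 UMIs of Pdgfra, Dcn, Lum, Cldn11, Ptger2 and Cpxm1. Of 7869 genes with at least 30 UMIs in C57BL/6J cluster 5, 22 had at least 50% of them in this cell, while in B6129PF1/J the cell with the most UMIs held that share of 0 of 8272 genes.

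**Figure D5:**
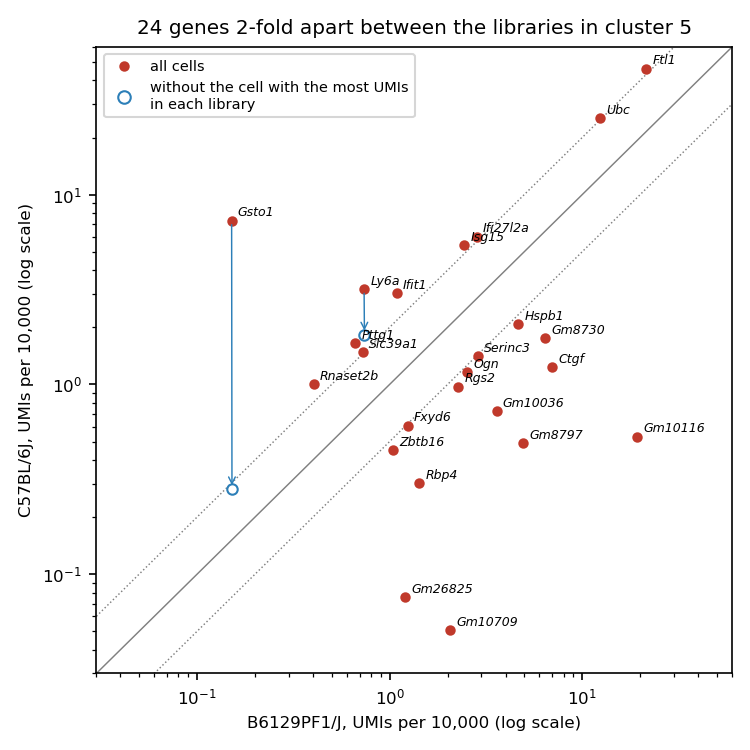
Level in B6129PF1/J (x axis) and C57BL/6J (y axis) of the 24 genes that differed 2-fold between the libraries in cluster 5, in UMIs per 10,000 on log scales, with dotted lines at 2-fold. Open circles show Gsto1 and Ly6a without the cell with the most UMIs in each library, where Gsto1 moves from 7.30 to 0.280 in C57BL/6J and its point lies inside the lines.

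Spread among cells of cluster 5 was measured after thinning. Of all genes, 2412 had a mean of at least 0.1 UMI per cell in both libraries, and the variance-to-mean ratio had medians of 1.02 and 1.03, where counting noise alone gives about 1 and hides differences in genes of few UMIs. The smaller of the libraries' ratios was past 2 for 57 genes (2.36%) and past 5 for 11. Malat1, a long noncoding RNA, had the largest ratios, 23.2 and 25.3, at means of 140 and 154 UMIs per cell. Mgp, matrix Gla protein, had ratios of 16.6 and 16.8 with a UMI in 96.5% and 95.7% of cells, and Dcn, decorin, of 9.52 and 10.7. The means were 16.2 and 16.1 UMIs for Mgp and 8.67 and 7.72 for Dcn, and the ratio was not adjusted for the mean. Spp1, osteopontin, had ratios of 11 and 21.3, with 83.2% and 78.7% of its UMIs in the 10% of cells that held most. Ptgds and Ttr also led this list, at 15.1 and 13.1 and at 12.8 and 14.9. Both are far higher in RPE, where Ttr stood at 1115 and 1046, and their part from RPE in cluster 5 was not tested. Ccl11 and Cxcl1, both chemokines, had ratios of 6.07 and 6.96 and of 5.68 and 5.91.

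Of the bulk tissue tables only the authors' mean FPKM per group was used, and their fold changes and p-values were left aside. No test was made here, and fewer cells of a type cannot be told apart from less RNA per cell. Of the 18 genes, 17 were listed, and 12 passed a mean of 1 FPKM in the Ihh comparison. None was 2-fold changed after Ihh deletion, against 1.33% of 11211 genes, so 0 of 12 says little about these genes. Their median log2 ratio on log2(FPKM + 0.1) was -0.09, ranging from -0.44 to 0.46, with -0.04 for all genes. Without the filter 1 of 17 was past 2-fold, Ndp, at 0.571 FPKM in wild type and 0.223 in the deletion. The label markers were lower in the deletion, as the authors' means: Pdgfra 11.1 in wild type and 7.25 in deletion, Cldn11 10.2 and 4.18, Ptger2 2.31 and 0.672, and Cpxm1 18.3 and 8.37. The stromal genes Dcn and Lum were lower too, at 436 and 294 and at 74.0 and 38.7. Clusters 7 and 8 share the label markers, so the values do not single out cluster 5. Some genes of the single C57BL/6J cell described above differed in the same tables, with Gsto1 at 10.0 and 98.8 and Asprv1 at 0.808 and 14.7. Their part in the marker values was not tested.

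In cultured GLI1+ cells 9 of the 18 genes passed the same filter. None was 2-fold changed with SAG, against 1.39% of 10196 genes, so 0 of 9 says little about these genes. Their median log2 ratio was -0.02, with 0.06 for all genes. Cpxm1 was at 20.3 FPKM with DMSO and 45.2 with SAG, and Pdgfra at 39.2 and 28.0, as the authors' means. Gli1 itself, the Hedgehog target gene, was at 0.277 and 0.292 in cluster 5, and Ptch1, the receptor, at 0.601 and 0.473, both within 2-fold of clusters 7 and 8 in both libraries. Over cluster 6 the ratio of Ptch1 was 2.12 (1.57 to 2.89) and 3.00 (2.00 to 4.62).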

How the data were processed

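The single-cell counts deposited by the authors are raw UMI counts per gene and cell, from Cell Ranger on mm10, and cluster numbers are those of the deposited metadata, made with Seurat 2.1. The cell numbers per cluster in this metadata differ from those listed by the study. The authors dropped cells under 1700 UMIs. The bulk values used are the authors' mean FPKM per group; their fold changes and p-values were not used, and limma, planned only for single-library values, was not run. The submitters' processing notes name STAR, Cufflinks, HTSeq and DESeq2 without their roles. UMIs were summed per cluster and library and scaled to 10,000 with exact Poisson intervals, ratios had exact conditional intervals, and shares exact binomial intervals at 95%. A ratio against 0 UMIs took 3 UMIs as the floor. Genes are named by rules a to g: the 20 with the largest ratio over clusters 6, 7 and 8, the 10 over every cluster, the 12 lowest, 6 each way per pair, 8 each way between strains, the 12 most variable, and members of gene lists. The members and lists were chosen with earlier results of these data known. Positions came from GENCODE vM21, with 87 of 87 genes matched, and promoters from RefSeq. The calling rule was tested on simulated data. Depth was 17168578 UMIs in B6129PF1/J and 15230413 in C57BL/6J. Python 3.11.15, numpy 2.4.6, scipy 1.17.1 and pandas 2.3.3 were used.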

Additional observations from a re-analysis of the deposited data

Results flagged for a closer look

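Ratios of cluster 5 to another stromal cluster whose intervals lay above 1 in a library and below 1 in the other were looked for among the named genes. The difference between the libraries was not tested in any of these cases. With the B6129PF1/J ratio given first, Gsto1 had 0.535 and 19.5 against cluster 7, and 0.531 and 26.8 against cluster 8, and the single cell described above holds nearly all of its C57BL/6J UMIs. Mgp had a ratio of 0.926 and 1.09 against cluster 8. Ptgds had 1.31 and 0.673 against cluster 6, 2.04 and 0.719 against cluster 7 and 0.556 and 1.76 against cluster 8. Ttr had 1.09 and 0.598 against cluster 6, 1.86 and 0.806 against cluster 7 and 0.525 and 1.36 against cluster 8. Ttr and Ptgds are both far higher in RPE than in stroma, and their part from RPE in each cluster was not tested.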

How the results depend on the processing

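A fold of 1.5 in place of 2 raised the genes higher than in clusters 6, 7 and 8 from 18 to 52, those higher than in every cluster from 12 to 32 and those differing between strains from 24 to 66, while a fold of 3 gave 5, 4 and 10. With no filter on low counts the numbers were 39, 21 and 2265, and 8 genes were lower than in all 3 stromal clusters in place of 0. Thinning to 1200 UMIs left 36 variable genes in place of 57. Chosen after seeing the data, cells with Xist and no Ddx3y gave 4 and 2 genes in place of 18 and 12. These cells were fewer, and the minimum of 50 UMIs was the same. All 18 genes had a ratio above 1 in both libraries, 12 stayed past 2-fold and 10 fell under the minimum. The cells are part of those in which the 18 were picked, so this is no separate test. Leaving out the cell with the most UMIs in each library kept all 18. Thinning each cell to 1700 UMIs kept 12 of the 18 past 2-fold, with all 18 above 1 and a lowest ratio of 1.44. The mean over cells of each cell's own level kept 16. A total without mitochondrial and ribosomal protein genes kept 15. Without the cells that held UMIs of both Xist and Ddx3y, 17 were kept. Label marker levels stayed within their intervals in 23 of 32 settings, and the other 9 were 8 under a total without mitochondrial and ribosomal protein genes and Cldn11 in B6129PF1/J after thinning. No paired analysis was possible because the scRNAseq has 1 library per strain and the expression values of the bulk tables are group means only. Group means also allow no leave-one-out values. Depth limits the genes of few UMIs, such as Ptx3 and Rnf128.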

Other observations

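Some of the genes held mainly by the single C57BL/6J cell described above were far apart in the bulk tissue, as the authors' means and with no test. Gsto1 was at 10.0 FPKM in wild type and 98.8 in the Ihh deletion, Asprv1 at 0.808 and 14.7, Calml3 at 0.244 and 8.81, Prss27 at 0.257 and 2.8, Plet1 at 0.306 and 3.47, Elf3 at 0.556 and 3.81 and Pglyrp1 at 1.30 and 7.96. Others of the set stayed under 2-fold, with Spint2 at 52.6 and 66.9, Lgals3 at 43.4 and 58.8 and Mal at 5.66 and 9.29. Upk3bl, at 9.01 and 16.3, and 2200002D01Rik, at 1.48 and 2.60, were under it too. In the GLI1+ cultures Plet1 and Calml3 were listed at 0 in both groups. These genes were named after their values were seen.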
